A study of Mus musculus with 29 samples.

Results

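The interferon-stimulated genes described here are 39 protein-coding genes chosen by name as a module of the interferon response. They were looked up by gene symbol in 29 RNA sequencing libraries of the mouse aortic arch, where all 39 were found among 51456 listed genes. The tests took in genes that reached a value of 1 in 9 or more libraries, which 37 of the 39 did, among 13510 genes in all. Oas3 and Oasl1, which belong to the oligoadenylate synthetase family, stayed under this limit. Their highest values were 1.15 and 2.65, both in a library of the antibody-treated group.

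The mice were C57BL/6 males on chow, and pumps were implanted at about 14 weeks of age. Both disease groups lacked apolipoprotein E (ApoE KO) and received angiotensin II (AngII, 15.27 mg/mL in a 100 µL pump at 0.11 µL per hour), a model of aortic disease in which some mice die of aortic rupture. One of them then received vehicle (the vehicle-treated model, 9 libraries, replicates 1 to 9) and the other an antibody against sclerostin (Scl-Ab) at 10 mg/kg once weekly under the skin for 4 weeks (10 libraries, replicates 10 to 19). The WT group received vehicle in the pump and by injection (10 libraries, replicates 20 to 29). Bone cells secrete sclerostin, which inhibits Wnt signals, and an antibody against it is used in osteoporosis. The model differs from WT in both genotype and AngII, whose effects cannot be told apart here, and no ApoE KO group without AngII is part of these samples. The libraries came from separately designated satellite animals, but the protocol gives 9 WT mice against 10 WT libraries, so n counts libraries and p-values may partly measure technical spread.

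Interferons are cytokines that cells release when they sense viral or misplaced nucleic acid. Type I interferons bind a receptor that activates the kinases Jak1 and Tyk2. The signal reaches a complex that contains STAT2 and IRF9 and binds the interferon-stimulated response element in the promoters of target genes, whereas interferon gamma acts mainly at gamma-activated sites. The products degrade viral RNA, block translation, mark proteins with ISG15 and amplify the response through IRF7. In the arterial wall this response is best known from macrophages and other leukocytes of atherosclerotic lesions, and vascular cells can mount it as well.

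The promoters are shown first because the response element is what defines many of these genes. RefSeq promoter windows on GRCm38.p6 (250 bases before to 50 after the annotated start) were found for 30 of the 39 genes. The core of the response element, spelled GAAA, then any 2 bases, then GAAA again, was searched on both strands. A match on the opposite strand reads TTTC, any 2 bases and TTTC. Shares are of genes, and a gene with several windows, such as Trim30a, counted if any of them held a match. The core was present in 16 of 30 genes (53.3%), against 3.99% of 27025 genes. A longer form that ends in GAAAC, every match of which contains the core, was present in 13 genes (43.3%), against 0.944% of all genes. TTCNNNGAA, the letters of a gamma-activated site, was present in 9 genes (30%), against 9.55% of all genes, and in Bst2 it shared bases with a match of the core. In Ifih1, Ddx58 and Eif2ak2 the core matched only after the start. A match describes the letters and is not evidence of a bound site.

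The 150 bases shown for 9 genes all lie before the start and read 5′ to 3′ on the gene's own strand. Of these, 7 were picked by role group, only among its tested genes with a core match before the start. The one with the largest change of the vehicle-treated model against WT was taken, so it need not be the most changed gene of its group. Ifit3 is shown because it had the largest fold change between Scl-Ab and vehicle. Irf1 is shown as an example of a window with a TTCNNNGAA match and no core match, as also found for Irf8, Isg20, Ifit2 and Ifi35. Capitals mark matches of the core, except in Irf1, where they mark TTCNNNGAA. The stretches are chr10:128270248-128270397 (plus strand) for Stat2, chr19:34640739-34640888 (plus) for Ifit1 and chr5:120907526-120907675 (minus) for Oas1a. Those of Rsad2, Isg15 and Gbp3 are chr12:26456453-26456602 (minus), chr4:156200819-156200968 (minus) and chr3:142559894-142560043 (plus). Those of Trim30a, Ifit3 and Irf1 are chr7:104465194-104465343 (minus), chr19:34583279-34583428 (plus) and chr11:53769864-53770013 (plus).
Stat2: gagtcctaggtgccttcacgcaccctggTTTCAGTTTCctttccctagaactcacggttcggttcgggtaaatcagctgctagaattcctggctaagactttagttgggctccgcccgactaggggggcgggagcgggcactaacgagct
Ifit1: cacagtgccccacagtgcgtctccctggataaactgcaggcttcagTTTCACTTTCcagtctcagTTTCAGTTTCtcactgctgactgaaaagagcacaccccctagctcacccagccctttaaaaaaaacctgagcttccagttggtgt
Oas1a: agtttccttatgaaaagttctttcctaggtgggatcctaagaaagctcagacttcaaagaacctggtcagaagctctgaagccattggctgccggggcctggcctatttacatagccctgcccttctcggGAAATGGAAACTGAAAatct
Rsad2: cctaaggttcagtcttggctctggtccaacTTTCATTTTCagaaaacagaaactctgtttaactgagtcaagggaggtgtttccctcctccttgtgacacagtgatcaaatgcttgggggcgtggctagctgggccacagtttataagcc
Isg15: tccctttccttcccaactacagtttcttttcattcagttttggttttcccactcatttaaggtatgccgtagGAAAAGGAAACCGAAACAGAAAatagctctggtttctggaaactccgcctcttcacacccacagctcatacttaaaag
Gbp3: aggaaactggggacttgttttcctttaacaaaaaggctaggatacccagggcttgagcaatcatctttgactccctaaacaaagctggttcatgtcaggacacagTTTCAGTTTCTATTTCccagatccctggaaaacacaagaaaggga
Trim30a: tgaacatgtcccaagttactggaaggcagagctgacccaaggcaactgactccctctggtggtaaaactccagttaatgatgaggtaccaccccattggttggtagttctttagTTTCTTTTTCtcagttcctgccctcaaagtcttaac
Ifit3: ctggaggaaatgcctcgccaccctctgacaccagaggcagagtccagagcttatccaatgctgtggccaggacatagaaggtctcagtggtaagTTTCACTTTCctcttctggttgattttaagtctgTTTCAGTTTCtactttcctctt
Irf1: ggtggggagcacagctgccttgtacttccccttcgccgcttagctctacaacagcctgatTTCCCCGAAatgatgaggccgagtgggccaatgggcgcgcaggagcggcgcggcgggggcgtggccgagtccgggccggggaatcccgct

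Several of these matches overlap one another. Isg15 holds 3 overlapping core matches, and Oas1a and Gbp3 hold 2 overlapping ones each. Ifit1 and Ifit3 each hold 2 separate matches. Among the tested genes, 15 had the core in their window, and their median change against WT was 1.67-fold, with 14 of 15 higher in the vehicle-treated model. The 13 tested genes with a window but no core match had a median of 1.29-fold, with 8 of 13 higher. Irf8 and Irf7, which had no core match within this window, were among the most changed. The 9 tested genes without a window in the table had a median of 1.98-fold, and all 9 were higher.

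Values are FPKM-like (scaled by gene length), so levels can be compared between genes. Libraries had like depths, since for a 2 kb gene a value of 1 meant 31.8 to 43.7 fragments. Apoe, the deleted gene, ran from 146 to 363 in WT, from 3.32 to 9.23 in the vehicle-treated model and from 4.64 to 12.5 with Scl-Ab, so no library went against its genotype label. The 6 smooth muscle markers had a summed level of at least 4822 in every library, and these genes define the wall of the aorta. The smallest root mean square difference between the log2 values of 2 libraries in a group was 0.235, so no pair of libraries held the same values.

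The first comparison asked how the module differed between the diseased aorta and the WT aorta. Of 37 tested genes, 31 were higher in the vehicle-treated model, none was lower and 6 did not pass (limma, Benjamini-Hochberg adjusted p under 0.05 over all genes tested). Over all genes, 22.7% were called higher and 31% lower. The median change of the module was 1.74-fold, against 0.973-fold over all genes. Of the higher genes, 10 rose 2-fold or more, against 4.81% of all genes, and in 18 genes every model library lay above every WT library, against 7.81% of all genes. Mx1 and Ifi44, at most 0.370 and 0.245 in WT, passed the filter on low values only through model libraries. Such genes could hardly be called lower than WT, and they are part of the counts and medians against WT. Without the filter, 32 of 39 genes were higher and 0 lower, against 3765 and 4329 of 31865 genes. Fold changes are on the log2(value + 1) scale, which understates the change of genes with low values. In bulk tissue, more cells of a type and more RNA per cell cannot be told apart.

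**Figure D1:**
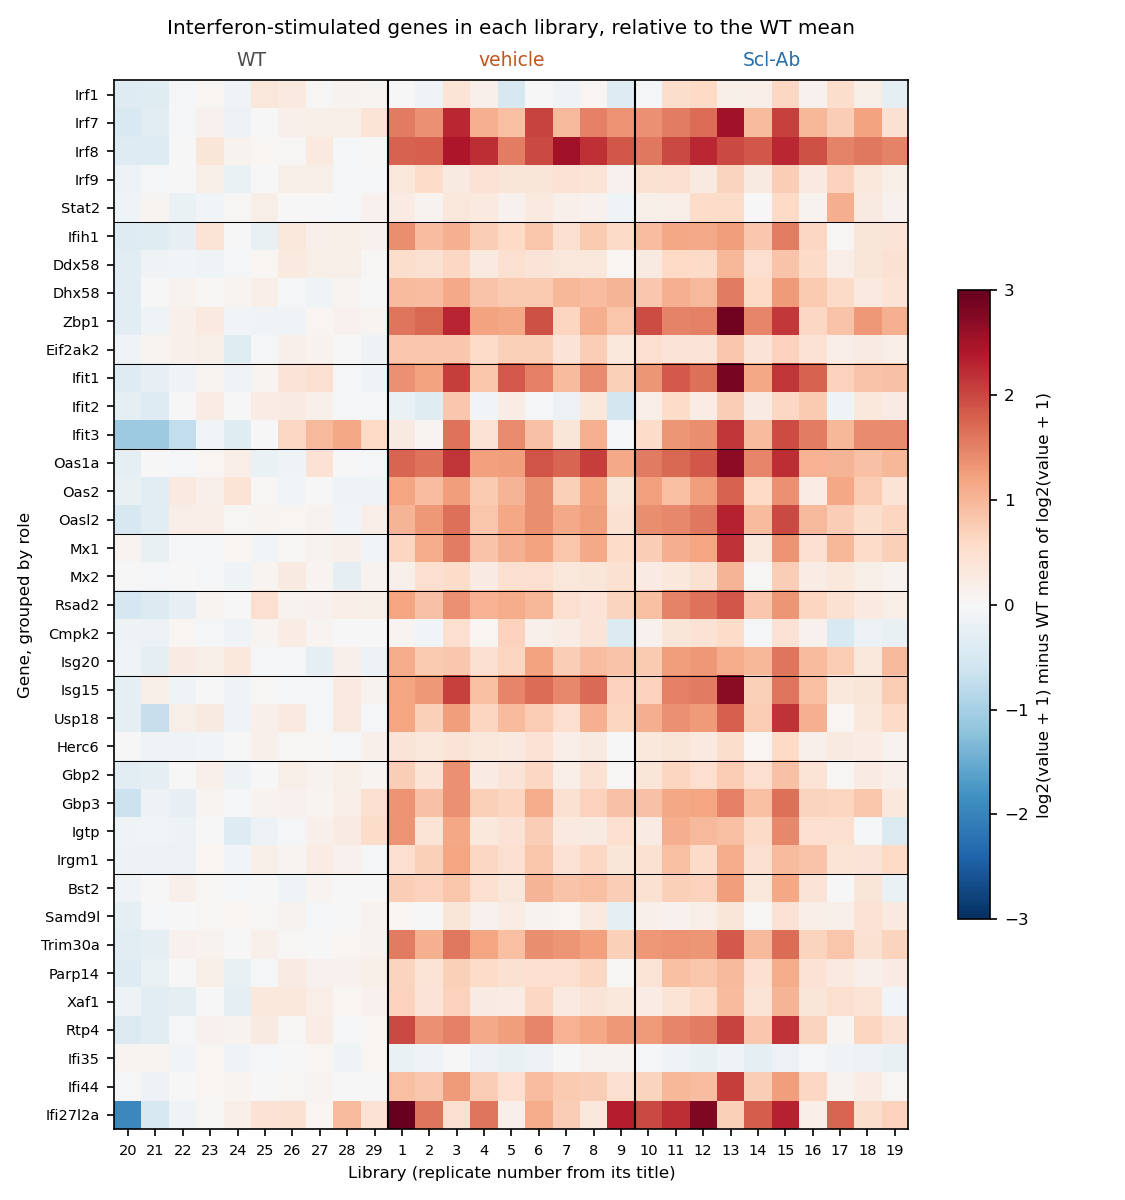
Each row is 1 of the 37 tested interferon-stimulated genes, grouped by role, and each column is 1 library; colour gives log2(value + 1) minus the mean of the 10 WT libraries, with values beyond the scale drawn in its end colour. Most rows are red in the 9 vehicle and 10 Scl-Ab libraries, with Scl-Ab 13, Scl-Ab 15 and vehicle 3 darkest and Irf1, Ifit2, Samd9l and Ifi35 near white.

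The transcription factors of the module changed unequally. Irf8, a factor of the myeloid lineage that interferon gamma induces, ran from 0.302 to 1.20 in WT (median 0.744), from 3.98 to 8.80 with vehicle (median 5.73) and from 3.79 to 7.18 with Scl-Ab (median 5.34). Every library of both model groups lay above every WT library, and the model groups overlapped. Its rise of 4.09-fold (log2 2.03, SE 0.13, limma adjusted p = 4.34e-13) in the vehicle-treated model was the largest of the module. Irf7, which drives the second wave of type I interferon production, ran from 1.34 to 3.24 in WT (median 2.33), from 4.97 to 14.4 with vehicle (median 7.20) and from 3.41 to 17.4 with Scl-Ab (median 6.82). Again no model library fell within the WT range. The rise in the vehicle-treated model was 2.72-fold (log2 1.45, SE 0.21, limma adjusted p = 1.52e-06). Irf9, the DNA-binding part of the type I complex, rose 1.29-fold.

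Irf1 and Stat2, the other factors, did not pass the test against WT. Irf1, an early factor downstream of interferon gamma, ran from 11.04 to 19.04 in WT (median 15.4), from 10.4 to 20.1 with vehicle (median 14.8) and from 12.1 to 23.4 with Scl-Ab (median 16.96), so all groups overlapped. Its fold change in the vehicle-treated model was 0.965 (limma adjusted p = 0.735). Stat2, a subunit of the type I complex, ran from 6.72 to 9.00 in WT (median 7.88), from 7.11 to 10.2 with vehicle (median 8.75) and from 7.71 to 17.9 with Scl-Ab (median 9.37). The highest value belongs to Scl-Ab 17 and stands apart from the rest of its group. The change with vehicle was 1.13-fold (limma adjusted p = 0.149), and the gene was called higher in 4 of 14 other settings, among them an exact Wilcoxon test.

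All 5 nucleic acid sensors were higher in the vehicle-treated model. Dhx58, a helicase that regulates RNA sensing, ran from 0.464 to 1.09 in WT (median 0.857), from 2.14 to 3.03 with vehicle (median 2.49) and from 1.23 to 4.34 with Scl-Ab (median 2.17). Vehicle libraries were tightly grouped above WT, and Scl-Ab libraries spread on both sides of them. The rise with vehicle was 1.91-fold (log2 0.94, SE 0.12, limma adjusted p = 1.21e-07). Eif2ak2, the kinase PKR that stops translation on double-stranded RNA, ran from 3.37 to 5.40 in WT (median 4.80), from 5.99 to 8.86 with vehicle (median 8.31) and from 5.47 to 8.92 with Scl-Ab (median 6.40). It rose 1.57-fold with vehicle (log2 0.65, SE 0.09, limma adjusted p = 3.69e-07), with no overlap with WT in either model group. The remaining sensors were Zbp1, which senses Z-form nucleic acid (2.61-fold), Ifih1, which encodes MDA5 (1.77-fold), and Ddx58, which encodes RIG-I (1.31-fold), whose call ended against WT replicates 25 to 29 alone.

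Of the 3 IFIT genes, whose proteins bind foreign RNA and hinder its translation, 2 were higher. Ifit1 ran from 0.569 to 1.84 in WT (median 0.938), from 2.32 to 7.54 with vehicle (median 4.29) and from 2.32 to 13.7 with Scl-Ab (median 4.76). It rose 2.50-fold with vehicle (log2 1.32, SE 0.22, limma adjusted p = 9.99e-06), and WT did not overlap either model group. Ifit3 ran from 3.73 to 21.8 in WT (median 8.91), from 8.84 to 30.1 with vehicle (median 12.6) and from 13.8 to 43.5 with Scl-Ab (median 25.7). All 3 groups overlapped widely. Its 1.60-fold change with vehicle passed only narrowly (limma adjusted p = 0.0463) and was lost in 15 of the 29 fits that left out 1 library. The WT libraries themselves were split, with replicates 20 to 24 between 3.73 and 8.63 and replicates 25 to 29 between 9.19 and 21.8. Against the latter alone, the log2 change with vehicle was -0.0012. Of the 50-base stretches of Ifit3, 51.2% also occur in its copy Ifit3b, so reads may be split between them, and the value is uncertain.

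Ifit2 did not pass. It ran from 4.63 to 7.76 in WT (median 6.35), from 4.10 to 12.1 with vehicle (median 6.05) and from 5.72 to 11.7 with Scl-Ab (median 8.03). The vehicle group spanned the whole WT range, and the fold change was 0.995 (limma adjusted p = 0.971).

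The 3 tested genes of the oligoadenylate synthetase family, whose products switch on RNase L, were all higher. Oas1a ran from 0.227 to 1.02 in WT (median 0.471), from 2.30 to 5.56 with vehicle (median 3.99) and from 1.75 to 8.58 with Scl-Ab (median 3.25), with no overlap between WT and either model group. It rose 3.14-fold with vehicle (log2 1.65, SE 0.19, limma adjusted p = 2.61e-08). In Oas1a, 57.6% of 50-base stretches are shared with Oas1g, which was too low to be tested, so its level is uncertain too. Oas2 ran from 0.787 to 2.00 in WT (median 1.22), from 1.93 to 4.98 with vehicle (median 3.63) and from 1.66 to 6.76 with Scl-Ab (median 3.64). Ranges touched at their ends, and the rise with vehicle was 1.98-fold (log2 0.98, SE 0.16, limma adjusted p = 8.42e-06). Oasl2 rose 2.19-fold.

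Both Mx genes, dynamin-like GTPases that restrict viruses, were higher. Mx1 ran from 0.0639 to 0.370 in WT (median 0.242), from 0.820 to 2.60 with vehicle (median 1.57) and from 0.564 to 4.55 with Scl-Ab (median 1.27). No model library reached down to WT, and the rise with vehicle was 1.99-fold (log2 0.99, SE 0.16, limma adjusted p = 9.37e-06). Mx2 rose 1.32-fold.

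Among the nucleotide-modifying and nuclease effectors, 2 of 3 were higher. Isg20, an exonuclease, ran from 2.66 to 4.52 in WT (median 3.25), from 5.12 to 9.20 with vehicle (median 6.72) and from 4.58 to 12.3 with Scl-Ab (median 7.67). Both model groups lay wholly above WT. The rise with vehicle was 1.79-fold (log2 0.84, SE 0.12, limma adjusted p = 1.29e-06). Rsad2, which encodes viperin, rose 1.87-fold. Its neighbour on chromosome 12, Cmpk2, a mitochondrial nucleotide kinase, ran from 2.06 to 3.02 in WT (median 2.42), from 1.59 to 4.54 with vehicle (median 2.85) and from 1.49 to 4.06 with Scl-Ab (median 2.75). Model libraries lay on both sides of the WT range, and Cmpk2 did not pass (1.13-fold, limma adjusted p = 0.227).

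The ISG15 system, in which ISG15 is attached to proteins by ligases and removed by USP18, had 3 of 3 genes higher. Isg15 ran from 1.92 to 3.40 in WT (median 2.57), from 4.80 to 13.8 with vehicle (median 8.77) and from 3.49 to 22.4 with Scl-Ab (median 5.44). The lowest Scl-Ab library barely cleared the highest WT library, while Scl-Ab 13 was higher than any other library of the series. The rise with vehicle was 2.60-fold (log2 1.38, SE 0.22, limma adjusted p = 6.36e-06). Usp18, the deconjugating protease, rose 1.81-fold, and Herc6, the ISG15 ligase of the mouse, rose 1.23-fold.

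All 4 guanylate-binding and immunity-related GTPases, which interferon gamma induces and which act on membranes around intracellular pathogens, were higher. Irgm1 ran from 8.78 to 11.96 in WT (median 10.0), from 13.3 to 24.2 with vehicle (median 16.0) and from 13.6 to 22.98 with Scl-Ab (median 15.7). WT lay below both model groups, and the rise with vehicle was 1.55-fold (log2 0.63, SE 0.10, limma adjusted p = 6.65e-06). Gbp3 ran from 1.68 to 4.86 in WT (median 3.42), from 4.73 to 9.87 with vehicle (median 6.66) and from 4.19 to 12.1 with Scl-Ab (median 6.72). Only the ends of the ranges overlapped, and the rise was 1.86-fold (log2 0.90, SE 0.15, limma adjusted p = 1.71e-05). Igtp and Gbp2 rose 1.52-fold and 1.41-fold, but neither passed against WT replicates 25 to 29 alone.

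The membrane and other effectors held 7 higher genes of 9. Trim30a, a ubiquitin ligase that dampens inflammatory signalling, ran from 1.17 to 2.01 in WT (median 1.79), from 3.45 to 7.12 with vehicle (median 5.30) and from 2.71 to 8.63 with Scl-Ab (median 4.97), with WT below both model groups. It rose 2.32-fold with vehicle (log2 1.22, SE 0.15, limma adjusted p = 7.46e-08). Rtp4, a receptor chaperone induced by interferon, ran from 1.73 to 3.48 in WT (median 2.82), from 6.62 to 13.6 with vehicle (median 8.05) and from 2.91 to 15.7 with Scl-Ab (median 6.74). Vehicle libraries all exceeded WT, whereas the Scl-Ab group reached down into the WT range. The rise with vehicle was 2.56-fold (log2 1.36, SE 0.20, limma adjusted p = 2.21e-06). Ifi44 rose 1.74-fold, Bst2, which encodes the virus-tethering protein tetherin, 1.67-fold, Parp14, an ADP-ribosyltransferase, 1.41-fold and Xaf1, which binds the apoptosis inhibitor XIAP, 1.34-fold. The call of Xaf1 ended against WT replicates 25 to 29 alone.

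Ifi27l2a, which encodes a small interferon-induced membrane protein, is named here for its level, which was seen before it was chosen. It was the most abundant of the module, at 133 ± 53.6 (SD, n = 10) in WT against 364 ± 288 (SD, n = 9) in the vehicle group and 401 ± 229 (SD, n = 10) in the Scl-Ab group. Single vehicle libraries ran from 134 to 1015, the widest spread of any member there, and overlapped WT. The values of Ifi27l2a are set beside the adipocyte markers below. Its 2.41-fold rise passed (log2 1.27, SE 0.39, limma adjusted p = 0.00709), but not against WT replicates 25 to 29 alone (log2 0.81). Samd9l, an antiviral cytoplasmic factor, did not pass: it ran from 10.04 to 13.4 in WT (median 12.6), from 10.2 to 16.1 with vehicle (median 13.5) and from 12.7 to 17.1 with Scl-Ab (median 14.3), a 1.08-fold change with vehicle (limma adjusted p = 0.172). Ifi35, a leucine zipper protein induced by interferon, ran from 20.6 to 23.9 in WT (median 23.02), from 19.3 to 24.3 with vehicle (median 20.4) and from 18.1 to 22.1 with Scl-Ab (median 20.2). Its fold change with vehicle was 0.947 (limma adjusted p = 0.179).

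**Figure D2:**
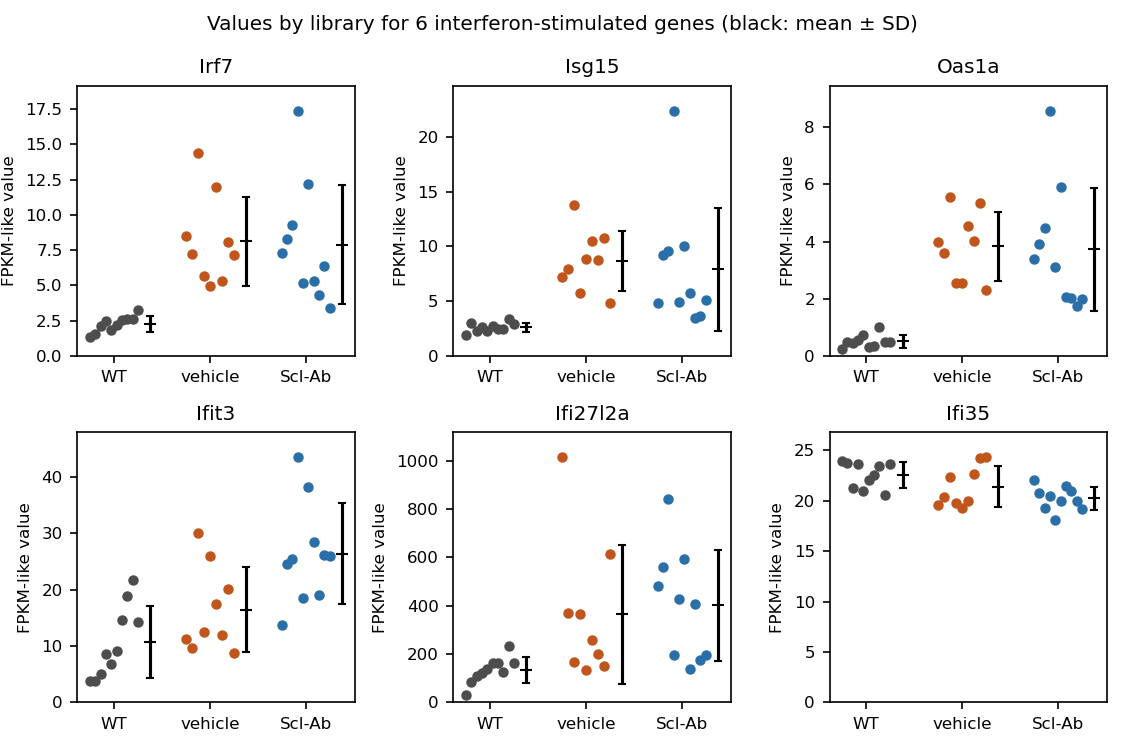
FPKM-like value (vertical axis, from 0) of 6 genes in every library of WT, vehicle and Scl-Ab; points are libraries and black marks are mean ± SD. Irf7, Isg15 and Oas1a lie above WT in every model library, Ifit3 and Ifi27l2a overlap between groups, and Ifi35 stays between 18.1 and 24.3 throughout.

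Within the disease model, Scl-Ab was then set against vehicle, and none of the 37 genes passed the test. The median change of the module was 1.001-fold, against 0.994-fold over all genes, and single genes ranged from 0.832-fold (Isg15) to 1.62-fold (Ifit3). Over all genes, 2.64% were called higher and 4.8% lower with Scl-Ab. At an unadjusted p under 0.05, limma found 4 of the 37 genes, while 25% of all genes reached that level. An exact Wilcoxon test likewise called none after adjustment (3.06% of all genes) and found 4 at the unadjusted level. No gene of the module had every Scl-Ab library above or below every vehicle library, against 0.0296% and 0.111% of all genes.

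A missed threshold does not show that the groups act alike, so the intervals of the change are given. For 29 of 37 genes the 95% interval of the fold change lay within 1.5-fold in both directions, and for 35 within 2-fold. Each interval rests on 1 variance per gene, pooled over all 3 groups. Relative to WT, the SD of log2(value + 1) was larger for 36 of 37 genes under Scl-Ab and for 28 under vehicle. Over all genes tested it was larger for 83.8% under Scl-Ab and for 76.3% under vehicle, so a wider spread is not particular to the module. Intervals between the model groups may thus be too narrow for many genes, and these counts too high. The log2(value + 1) scale also understates the change of genes with low values. The 4 genes with the smallest p were Ifit2, Eif2ak2, Irf1 and Ifit3. Ifit2 was 1.31-fold with Scl-Ab (95% interval 1.08 to 1.59, limma adjusted p = 0.077). Eif2ak2 was 0.858-fold (95% interval 0.760 to 0.968, limma adjusted p = 0.102). Irf1 was 1.24-fold (95% interval 1.05 to 1.47, limma adjusted p = 0.103), and Ifit3 was 1.62-fold (95% interval 1.08 to 2.42, limma adjusted p = 0.123). Their library values are given above, and in each the 2 model groups overlapped. Leaving out 1 library brought a call for Irf1 (without Scl-Ab 19), for Ifit2 (without vehicle 3 or Scl-Ab 17) and for Eif2ak2 (without Scl-Ab 13), at log2 differences between -0.26 and 0.49.

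**Figure D3:**
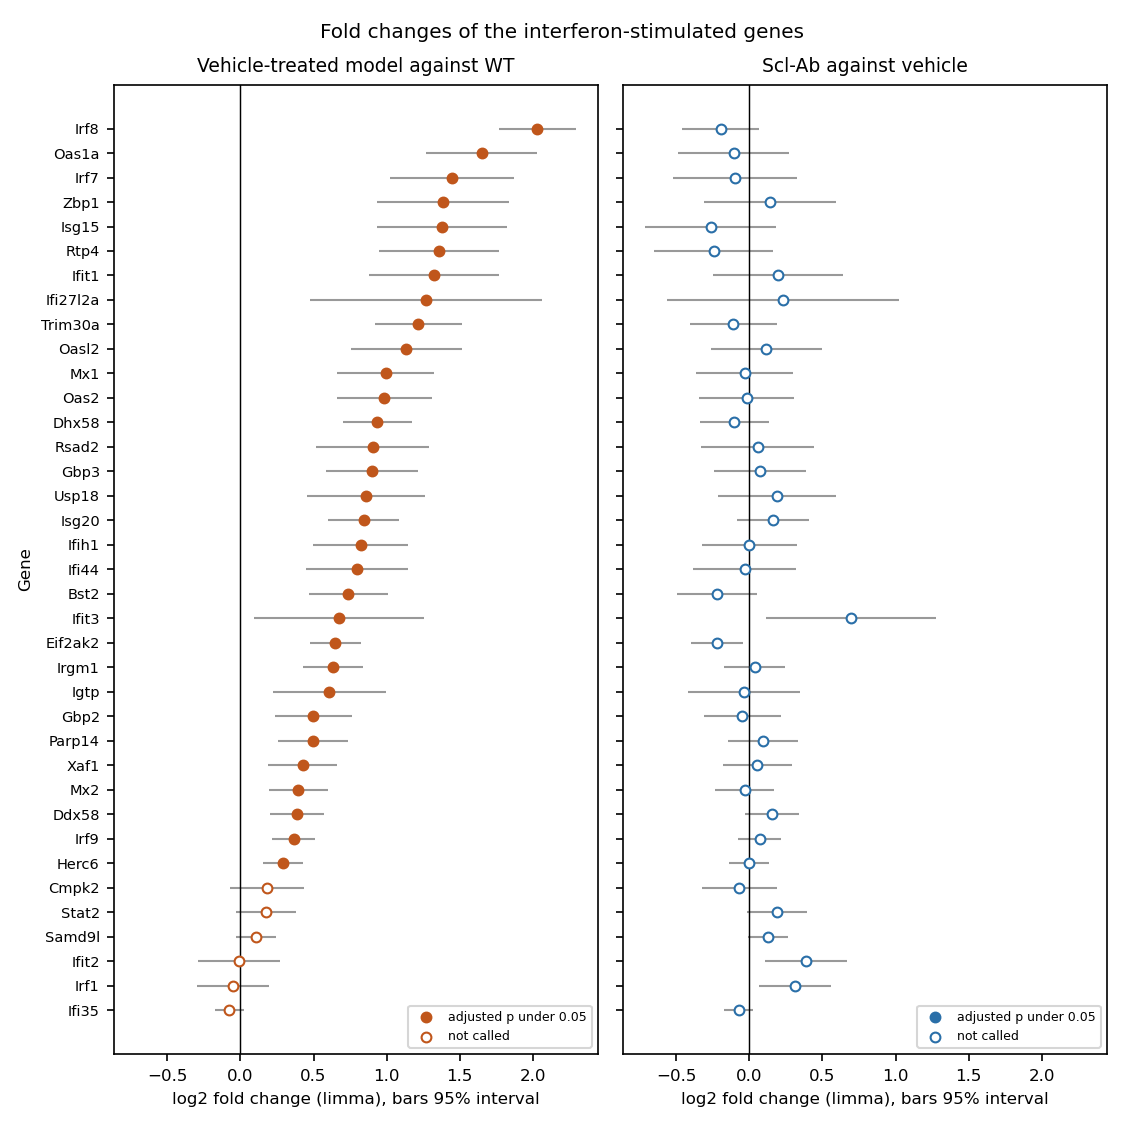
Log2 fold change (horizontal axis) with its 95% interval for the 37 tested genes, ordered by the change of the vehicle-treated model against WT (left panel); the right panel gives Scl-Ab against vehicle on the same scale. On the left 31 filled points lie to the right of 0, from Herc6 to Irf8, and on the right every point is open and lies between the log2 values of Isg15 (-0.26) and Ifit3 (0.69).

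Against WT, the Scl-Ab group showed 34 higher genes, 1 lower gene and 2 that did not pass, with 19.8% of all genes called higher and 30.5% lower. This comparison shares its WT libraries with the first one and so is not independent of it. The median change was 1.77-fold, and in 13 genes every Scl-Ab library lay above every WT library, against 5.74% of all genes. With 1 added to each value, the largest changes were those of Irf8 (3.57-fold), Oas1a (2.91-fold), Zbp1 (2.88-fold), Ifit1 (2.86-fold) and Ifi27l2a (2.83-fold). With 0.1 added, Mx1 (log2 2.13) came just above Ifit1 (log2 2.12), and Ifi27l2a was no longer among the first 5. Stat2 (1.29-fold, limma adjusted p = 0.00278), Ifit2 (1.30-fold, limma adjusted p = 0.0194) and Samd9l (1.18-fold, limma adjusted p = 0.00319) passed here and not with vehicle, but none of these passed between the model groups. Against WT replicates 25 to 29 alone, 26 genes were higher, and the calls of Stat2, Ifit2, Samd9l and Ifi27l2a were among the 8 that ended. Ifi35 was the lower gene (0.900-fold, limma adjusted p = 0.0085), and this call ended under each of the 3 other scalings. Irf1 (1.20-fold, limma adjusted p = 0.065) and Cmpk2 (1.08-fold, limma adjusted p = 0.457) did not pass.

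Libraries differed in the level of the whole module, most of all under Scl-Ab. The mean log2(value + 1) of the 37 genes was 2.23 ± 0.157 (SD, n = 10) in WT against 3.01 ± 0.190 (SD, n = 9) in the vehicle group and 3.05 ± 0.354 (SD, n = 10) in the Scl-Ab group. WT libraries lay between 1.91 (WT 20) and 2.36 (WT 26), and every model library lay above them. Vehicle libraries ran from 2.74 (vehicle 9) to 3.37 (vehicle 3) and Scl-Ab libraries from 2.63 (Scl-Ab 19) to 3.64 (Scl-Ab 13). Scl-Ab 13 held the highest value of its group for 19 genes and Scl-Ab 15 for 13 genes, together 32 of 37. In the vehicle group, vehicle 3 was highest for 24 genes and vehicle 9 lowest for 20, and in WT, WT 20 was lowest for 19.

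**Figure D4:**
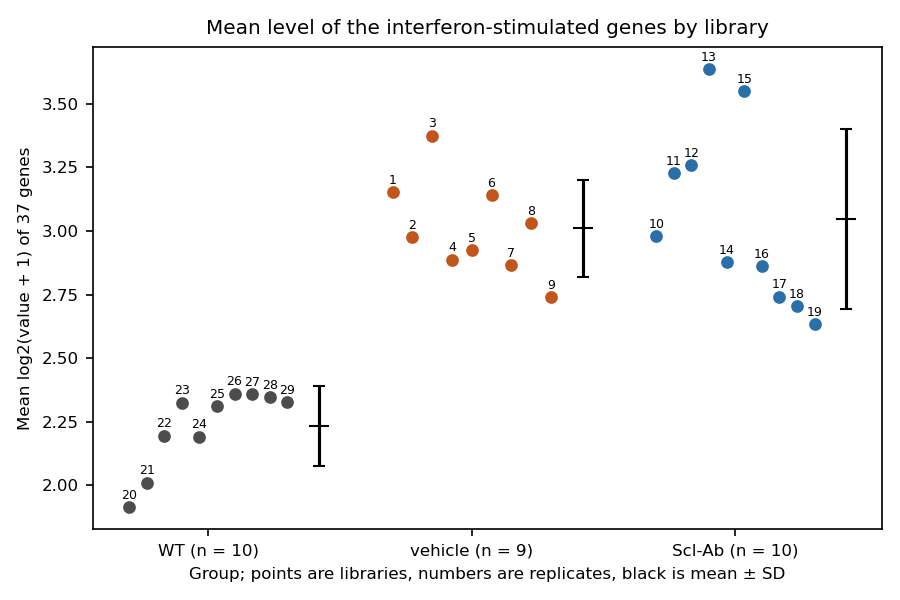
Mean log2(value + 1) of the 37 tested interferon-stimulated genes in each library (points, numbered by replicate), with the mean ± SD of each group in black. WT libraries reach at most 2.36, vehicle libraries lie between 2.74 and 3.37, and Scl-Ab libraries spread from 2.63 to 3.64 with Scl-Ab 13 and Scl-Ab 15 on top.

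Gene by gene, the spread was wider with Scl-Ab as well. The median SD of log2(value + 1) over the 37 genes was 0.203 for WT, 0.281 for vehicle and 0.405 for Scl-Ab, against medians over all genes of 0.139, 0.199 and 0.231. For 30 of 37 genes the SD was larger with Scl-Ab than with vehicle, by a median ratio of 1.51. Over all genes that ratio was 1.09, and 58.5% were above 1. Between vehicle and WT the module's ratio of 1.34 was below the 1.41 of all genes. Adding 1 narrows the SD of genes with low values, and most of the 37 genes were lower in WT. As deposited, Oas1a was 0.510 ± 0.225 (SD, n = 10) in WT and 3.83 ± 1.20 (SD, n = 9) with vehicle. Relative to its mean the SD of Oas1a was larger in WT, while its SD of log2(value + 1) was 0.203 and 0.367. Comparisons of spread with WT are limited by this. No test of the spread was made, and many of the 37 genes rise and fall together within a library, so they do not count as separate observations. Not all do: Ifi27l2a was 196 in Scl-Ab 13, against a median of 417 in the Scl-Ab group.

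The spread was set beside what the labels and other genes give. Library titles carry a code of unstated meaning, whose last 2 digits run from 12 to 15 or from 27 to 33 in both model groups. In WT they run from 1 to 10, so what the code stands for cannot be told apart from the difference between model and WT. In the Scl-Ab group the module mean was 3.28 ± 0.272 (SD, n = 4) in the first range and 2.89 ± 0.334 (SD, n = 6) in the second. With vehicle it was 3.10 ± 0.215 (SD, n = 4) and 2.94 ± 0.153 (SD, n = 5). With the range as a term in the fit, and within the second range, no gene of the module passed between Scl-Ab and vehicle, while 118 and 167 of all genes were higher and 230 and 248 lower. Within the first range none of the 13510 genes passed, so that fit could not have called a gene of the module. The median log2 change of the module was 0.15 within the first range and -0.032 within the second, against 0.00082 over all libraries. In the first range 34 of 37 genes lay above the median of all genes, in the second 17, and over all libraries 20. Genes of the same libraries do not count as separate observations, and the first range holds Scl-Ab 13, the library with the highest module mean. In WT, replicates 20 to 24 had a module mean of 2.13 ± 0.163 (SD, n = 5) and replicates 25 to 29 one of 2.34 ± 0.0211 (SD, n = 5). Against replicates 25 to 29 alone, 25 genes were higher with vehicle, and against replicates 20 to 24 alone, 31 were. The 6 calls that ended were those of Ifit3, Ddx58, Gbp2, Igtp, Xaf1 and Ifi27l2a.

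Markers of macrophages moved with the module. All 10 macrophage markers were higher in the vehicle-treated model, with a median of 3.92-fold. Their summed level ran from 117 to 389 in WT, from 1056 to 3205 with vehicle and from 851 to 2036 with Scl-Ab, and none was at 0. The part of macrophage content in the module's rise was not tested. Within the groups the 2 orders matched only in part. Vehicle 7 had the highest macrophage sum (3205) with a module mean of 2.86, and vehicle 3, highest in module mean, had a sum of 1734. Scl-Ab 13 had the highest module mean at a macrophage sum of 1590.1. Scl-Ab 15 combined a high module mean (3.55) with the highest macrophage sum of its group (2036). Scl-Ab 17, 18 and 19 had the lowest module means of their group (2.74, 2.70 and 2.63), at macrophage sums of 851, 1144 and 1054. Scl-Ab 16 had a sum of 1850 at a module mean of 2.86. Of the 6 smooth muscle markers, all were lower in the vehicle-treated model, and their summed level ran from 16991 to 20402 in WT, from 4822 to 16399.6 with vehicle and from 5459 to 13186 with Scl-Ab.

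Markers of other leukocyte types differed in level. Siglech and Ccr9, defining genes of plasmacytoid dendritic cells, the main producers of type I interferon, had means of 0.548 and 0.0471 in WT, 0.325 and 0.0504 with vehicle, and 0.333 and 0.0608 with Scl-Ab. Neither was high enough to be tested. The tested genes of that list were Tcf4 and Cox6a2, which wall and muscle cells also make. Tcf4 rose 1.44-fold with vehicle (limma adjusted p = 5.93e-06) and 1.62-fold with Scl-Ab against WT, and Cox6a2 rose 3.54-fold with Scl-Ab against WT (limma adjusted p = 0.0247) and was 1.07-fold with vehicle. Pacsin1 and Klk1, the other genes of the list, were not tested either (highest values 0.271 and 0.144). The list's summed level, most of it from Tcf4 and Cox6a2, was 12.04 to 31.9 in WT, 15.5 to 47.3 with vehicle and 18.6 to 60.1 with Scl-Ab. None of the 8 T and NK cell markers was high enough to be tested, and their summed level was 0.200 to 1.04 in WT, 1.91 to 4.79 with vehicle and 1.27 to 5.41 with Scl-Ab. None of 4 B cell markers was tested (summed level 0.164 to 1.48, 0.656 to 4.75 and 0.618 to 3.58). Of the conventional dendritic cell markers, 3 of 4 tested were higher with vehicle, with a summed level of 5.58 to 7.93 in WT, 13.2 to 23.1 with vehicle and 11.99 to 19.8 with Scl-Ab. Both tested neutrophil markers were higher with vehicle, with a summed level of 0.586 to 3.60 in WT, 2.13 to 32.7 with vehicle and 1.76 to 27.6 with Scl-Ab, and Ly6g was listed at 0 in 9 of 10 WT, 8 of 9 vehicle and all 10 Scl-Ab libraries.

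Markers of resident wall cells moved less evenly. Of 6 endothelial markers, 4 were higher with vehicle (summed level 85.5 to 160.2 in WT, 147 to 209 with vehicle and 71.5 to 185 with Scl-Ab), and 1 was lower with Scl-Ab than with vehicle. Of 5 fibroblast markers, 3 were higher with vehicle (summed level 718 to 1725, 1305 to 3738 and 941 to 4855). None of 6 adipocyte markers passed with vehicle (summed level 161 to 2055, 339 to 6735 and 536 to 5803). The library with the highest adipocyte sum of its group was also highest for Ifi27l2a. These were WT 28 (sum 2055, Ifi27l2a 232), vehicle 1 (6735, 1015) and Scl-Ab 12 (5803, 843). The lowest sums were in WT 20 (161, Ifi27l2a 30.7), vehicle 5 (339, 134) and Scl-Ab 13 (536, 196). WT 20 and vehicle 5 were also lowest for Ifi27l2a, while with Scl-Ab that was Scl-Ab 16 (971, 138). Whether endothelial cells, fibroblasts or adipocytes contribute to the values of Ifi27l2a or of the whole module was not tested.

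The ligands of the pathway were near the floor of detection. None of 21 interferon genes reached the limit for testing. The 12 numbered alpha genes other than Ifna7 were at 0 in every library, and Ifna7 was at 0.0869 in its highest library. Ifnb1, which encodes interferon beta, was listed above 0 only in Scl-Ab libraries (highest 0.0703), and Ifng, which encodes interferon gamma, reached 0.0425 in WT against 0.141 in the vehicle group and 0.114 in the Scl-Ab group. Ifne had the highest value of the list, 0.235 in WT. Interferon transcripts below such levels were not detectable at this depth.

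The receptors were present throughout. Of 5 tested, 4 were higher in the vehicle-treated model and none lower (median 1.30-fold). Il10rb, a chain of the type III receptor and of other receptors, rose from 24.3 ± 3.65 (SD, n = 10) to 35.9 ± 4.92 (SD, n = 9), 1.46-fold (limma adjusted p = 1.17e-05). Ifngr1, the ligand-binding chain for interferon gamma, rose from 37.6 ± 3.77 (SD, n = 10) to 57.4 ± 12.1 (SD, n = 9), 1.50-fold (limma adjusted p = 2.27e-05).

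Of 10 signal transduction genes, 5 were higher with vehicle, 3 lower and 2 not called. Ptpn6, which encodes SHP-1, a phosphatase of blood cells, rose 3.05-fold from 1.44 ± 0.420 (SD, n = 10) to 6.67 ± 2.30 (SD, n = 9), limma adjusted p = 3.97e-09. Pias1, an inhibitor of the pathway, fell to 0.752-fold (18.4 ± 1.49, n = 10, to 13.6 ± 1.22, n = 9, SD; limma adjusted p = 3.84e-06), and Jak2 and Tyk2 were the other lower genes. Of this list Ptpn2, a phosphatase that acts on JAK1, was the one called between the model groups, at 25.4 ± 2.76 (SD, n = 9) in the vehicle group and 21.7 ± 2.14 (SD, n = 10) in the Scl-Ab group, 0.861-fold (limma adjusted p = 0.0303).

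Upstream sensors and adaptors held 10 higher, 3 lower and 4 genes that did not pass among 17 tested. Irf5, a factor of macrophages, rose 2.51-fold (limma adjusted p = 8.42e-12), and Tmem173, which encodes STING, rose 2.58-fold (limma adjusted p = 1.52e-10). Mavs and Irf3, the adaptor of RNA sensing and the factor it activates, were lower with vehicle than in WT and higher with Scl-Ab than with vehicle. Mavs was 19.1 ± 1.41 (SD, n = 10) in WT, 14.8 ± 1.94 (SD, n = 9) in the vehicle group and 17.9 ± 1.92 (SD, n = 10) in the Scl-Ab group, 1.21-fold between the model groups (limma adjusted p = 0.0173). Irf3 was 37.1 ± 3.35 (SD, n = 10) in WT, 25.03 ± 2.58 (SD, n = 9) in the vehicle group and 31.9 ± 7.59 (SD, n = 10) in the Scl-Ab group, 1.25-fold between the model groups (limma adjusted p = 0.0283). These comparisons share the vehicle libraries, so a low value there gives both directions. Neither call between the model groups held in a fit of those groups alone.

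Targets outside the module were mostly higher with vehicle too. In class I antigen presentation 10 of 13 rose, by up to 2.12-fold. The smallest p-values were those of B2m, the light chain of class I molecules (1.44-fold to 1055 ± 126, SD, n = 9; limma adjusted p = 2.96e-06), and Erap1, a peptide-trimming protease (1.31-fold, limma adjusted p = 8.42e-06). Erap1 was lower with Scl-Ab than with vehicle (0.869-fold, limma adjusted p = 0.048). All 6 tested class II genes rose, by a median of 4.02-fold, among them H2-DMb1 (2.26-fold, limma adjusted p = 1.99e-10) and H2-Ab1 (4.81-fold, limma adjusted p = 1.29e-08), both markers of antigen-presenting cells as much as of interferon gamma. Cxcl10 (2.14-fold, limma adjusted p = 0.00311) and Cxcl9 (1.50-fold, limma adjusted p = 0.0202), chemokines for T cells, both rose from means of 0.140 and 0.676 in WT.

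Of 10 other guanylate-binding and immunity-related GTPases, 8 rose and none fell. The smallest p-values were those of Ifi47 (2.74-fold, limma adjusted p = 1.81e-10) and Irgm2 (1.56-fold, limma adjusted p = 0.000447). Of 37 other interferon-stimulated genes, 29 rose and none fell, with a median of 1.82-fold. Slfn2, a regulator of leukocyte quiescence, rose 5.21-fold (limma adjusted p = 7.78e-13), and Aim2, a DNA sensor of the inflammasome, rose 2.07-fold (limma adjusted p = 2.81e-10). Slfn2 was also lower with Scl-Ab than with vehicle, at 8.89 ± 3.14 (SD, n = 10) against 12.9 ± 3.24 (SD, n = 9), 0.699-fold (limma adjusted p = 0.0418).

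Of 100 tested pathway genes outside the module, 74 were higher and 6 lower with vehicle than in WT, against 22.7% and 31% of all genes. Between Scl-Ab and vehicle 2 were higher and 3 lower, which is near the 2.64% and 4.8% of all genes. None of these 5 calls (Mavs, Irf3, Ptpn2, Erap1 and Slfn2) held with the title code range as a term or in a fit of the model groups alone. Without 1 library in turn the counts ran from 1 to 2 higher and from 0 to 5 lower.

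**Figure D5:**
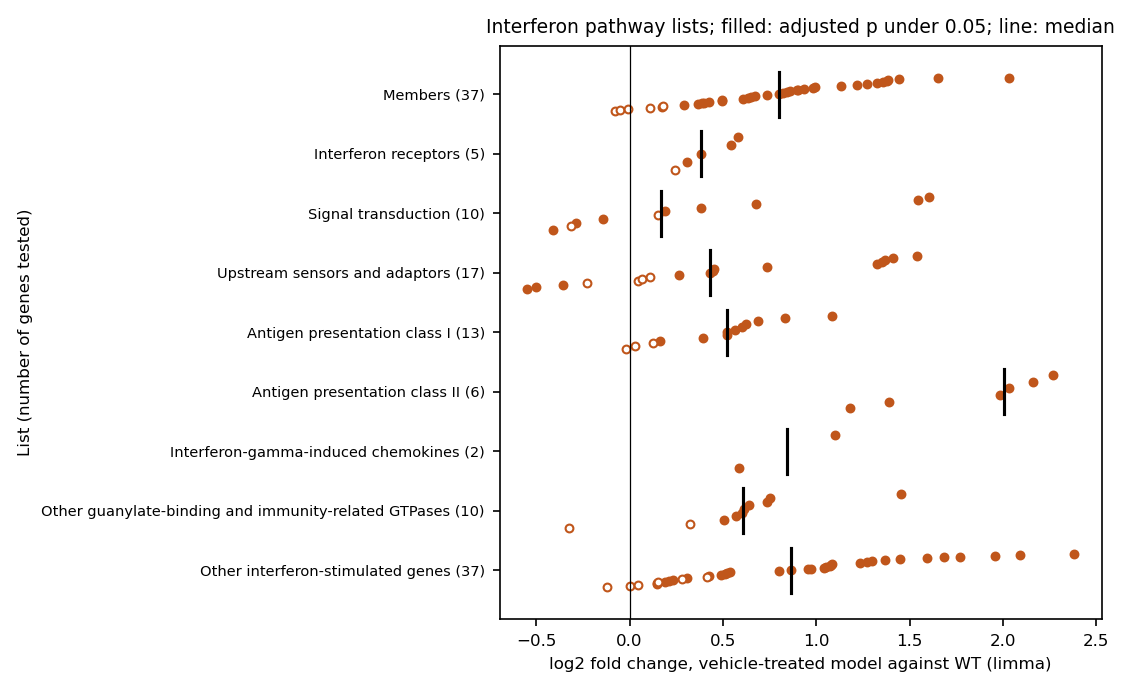
Log2 fold change of the vehicle-treated model against WT (horizontal axis) for the module and 8 other lists of interferon pathway genes; each point is 1 tested gene, filled where the adjusted p was under 0.05, and the black line is the median. The class II list lies furthest right (median 4.02-fold), and signal transduction and upstream sensors are the lists with filled points below 0.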

How the data were processed

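RNA of the mouse aortic arch was sequenced as stranded mRNA libraries (RNA integrity number of at least 7), per the labels. The deposited values are FPKM-like, that is, scaled by gene length, in 1 file per library. The headers call this unit FPKQ and say no more of it. Genome build GRCm38 and DESeq2 1.10.1 are named without a role, per the submitters' processing notes. The aligner, the annotation, the counting method and its use of strand are not given in these sources, and 8 of the 39 genes overlap an exon on the opposite strand. In low-valued genes with 1 transcript, 76.5 to 79.6% of values times length lay within 0.05 of whole steps, from which depth was estimated.

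Values were analysed as log2(value + 1), with a pseudocount of 1, in limma 3.58.1 under R 4.3.3 (trend and robust empirical Bayes), since the FPKM-like values are not counts. The tests took genes that reached 1 in 9 or more libraries, in 1 fit of all 29 libraries with 3 group means. Calls were made at a Benjamini-Hochberg adjusted p under 0.05 over all genes tested. The fit was also run on simulated data with independent values and 1 SD per gene in all groups. That setting differs from these libraries, where SDs differ between groups and genes move together, so nothing is drawn from it. Coordinates and exon sequence came from GENCODE M21 and promoters from RefSeq. Groups and replicate numbers came from the titles, and the 4-digit title code, of which 8 endings occur in both model groups, was used as a range and, in 1 alternative, as a block. The members, the other gene lists and the tests were chosen with earlier results of these data known. Library values are given for the 2 genes of each role group with the smallest p against WT (1 in groups of 2 or 3), for every tested gene not called there and for the 4 with the smallest p between Scl-Ab and vehicle. From the other lists, the 2 genes with the smallest p against WT and every gene called between Scl-Ab and vehicle are named. Alternatives covered the pseudocount, the filter, the scaling, library weights, the samples in the fit, the test, each library and WT replicates 20 to 24 or 25 to 29 alone. Fits within each title code range and with its endings as a block were chosen after seeing the data.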

Additional observations from a re-analysis of the deposited data

Results flagged for a closer look

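In 12 of 111 sets of values (37 genes in 3 groups, 10.8%) the highest or lowest library stood far from the rest of its group. The rule flags about 1 in 20 such sets by chance if values are normally distributed. It was applied to values without logs, so that rate may not hold here and is not set against the 10.8%. Many genes of the module move together within a library, so these are not 12 separate events. Scl-Ab 13 was far above its group for Isg15 (22.4, next 9.99), Ifit1 (13.7, next 8.03), Zbp1 (11.3, next 6.23), Mx1 (4.55, next 2.15) and Ifi44 (3.97, next 1.80). Vehicle 3 was far above for Gbp2 (34.6, next 21.9), Irgm1 (24.2, next 18.6) and Ifi44 (1.85, next 1.24), and vehicle 1 for Rtp4 (13.6, next 9.58). Scl-Ab 17 stood apart for Stat2 alone (17.9, next 12.3), although its module mean of 2.74 was among the lower ones of its group. In WT the flagged libraries were low: WT 20 for Samd9l (10.04, next 12.001) and WT 21 for Ifi44 (0.0394, next 0.154).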

How the results depend on the processing

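The groups share no replicate numbers. The 8 title code endings found in both model groups (16 libraries) were taken as a block after seeing the data, which called 0 genes of the module, 0 other pathway genes in either direction, and 0 higher and 7 lower of all genes between Scl-Ab and vehicle. Libraries with the same ending did not deviate together: the correlation of their deviations over genes ran from -0.461 to 0.572 and was above 0.1 in 2 of 8 pairs, so the endings are not taken to pair mice. Between the vehicle-treated model and WT, the count of higher module genes was 30 to 32 and of lower ones 0 when 1 library was left out, 18 of 23 tested with a filter of 5, and 1 was lower within title codes 12 to 15. For Ifit3 the log2 change turned to -0.0012 against WT replicates 25 to 29 alone. Between Scl-Ab and vehicle no other setting called a module gene, and leaving out 1 library gave 0 to 1 higher and 0 to 1 lower. Between Scl-Ab and WT it gave 34 to 35 higher and 1 lower, and the filter of 5 gave 21 higher of 23. The lower call (Ifi35) was 0 with median-of-ratios scaling, equal sums, quantile normalization, WT replicates 25 to 29 alone and title codes 12 to 15.

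For the other pathway genes, leaving out 1 library gave 71 to 76 higher and 5 to 7 lower (vehicle against WT), 1 to 2 higher and 0 to 5 lower (Scl-Ab against vehicle), and 70 to 76 higher and 3 to 5 lower (Scl-Ab against WT). Between Scl-Ab and vehicle, 1 was higher without the filter, with equal sums and with the Wilcoxon test, and 0 were in the fit of those 2 groups, with the code term and within either code range. Lower counts were 0 without the filter, with equal sums, in the fit of 2 groups, with the code term, within codes 12 to 15 and with the Wilcoxon test, and 1 with median-of-ratios scaling and within codes 27 to 33. Between Scl-Ab and WT, 2 were lower with median-of-ratios scaling, equal sums, WT replicates 25 to 29 and codes 27 to 33. The stricter motif was found before the start in 10 genes. Of all calls between Scl-Ab and vehicle, 35.4% were higher as deposited, 46.2% with median-of-ratios scaling and 65% with equal sums. The cause of these changes was not tested, except that the stricter filter tests fewer genes and the subsets hold fewer libraries.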
